A study of Mus musculus with 8 samples.

Results

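The arrays compared here came from pro-B(-)/LMO2 cells and from pro-B(+) cells, the pair of *Ebf1*-deficient mouse lines in the series that can enter the T-cell lineage. The members were chosen by sample title, and they are 4 of the 8 arrays of the series, with 2 arrays in each group. Every line descends from *Ebf1*-deficient fetal liver progenitors of mid-gestation embryos of both sexes and therefore lacks EBF1, a transcription factor needed for B-cell commitment. Pro-B(+) cells had been kept on OP9 stromal cells, and pro-B(-) cells on TD7, a thymic stromal line, each with SCF, Flt3L and IL-7. Pro-B(-)/LMO2 cells were pro-B(-) cells given a lentiviral vector that encodes mouse Lmo2 and rat CD2 from 1 transcript, and pro-B(-)/Mock cells received the same vector without Lmo2. The labels call the transductants only a pro-B cell line, and the study's text assigns them to the pro-B(-) line. Neither gives the stromal cells on which the transductants grew before RNA was taken, whether a Notch ligand was present, or whether each line was 1 clone. A figure legend of the study calls the replicates of the parental lines independent, while nothing was found on those of the transductants, so p-values measure only the spread between these arrays, which may be technical.

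LMO2 is a LIM-domain protein that does not bind DNA itself. It joins LDB1 to basic helix-loop-helix proteins such as TAL1 or LYL1 with their E-protein partners, and to GATA factors, and the assembled complex sits at E-box and GATA sequences in blood progenitors. T-cell commitment begins when NOTCH1 is engaged in an early progenitor and switches on *Tcf7*, which encodes TCF1, followed by *Gata3* and *Bcl11b*. The question of the comparison was how a T-competent state restored by Lmo2 differed from the state that pro-B(+) cells had kept.

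Signals are given as log2 of the background-subtracted intensity relative to the 75th percentile of the same array, so that 0 is the upper quartile of an array and a difference of 1 is 2-fold. The percentage of probes well above background lay between 57.8% and 61.2% on the 4 arrays. Among the 20376 probes that every one of the 8 arrays measured above its background, 13.6% differed by at least 2-fold between the means of pro-B(-)/LMO2 and pro-B(+), against 0.196% and 0.304% between the replicates of each. The distance to pro-B(+) was close to the distance to pro-B(-), for which 13.2% of probes differed, and larger than that to Mock, at 7.13%. Pro-B(+) and pro-B(-) themselves differed at 7.00% of probes. The parental lines were hybridised on 1 slide and both transductants on another, scanned at another time. Line of origin, vector and slide therefore changed together and cannot be told apart in this comparison. Mock against pro-B(-) spans the same slides without sharing an array with it, so its values are given beside some of the results. Genes printed without such values may differ there as well.

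The labels were checked first. *Lmo2* read 2.09 and 2.10 on the pro-B(+) arrays and 0.99 and 0.93 on the LMO2 arrays, so it was 2.19-fold lower in the cells that carried the Lmo2 vector (log2 difference -1.13 ± 0.03 SE, limma adjusted p = 3.46e-06). The mean was 0.35 in Mock and 0.63 in pro-B(-), so the vector cells stood above both by a small step. The place of the probe relative to the sequence carried by the vector was not determined, and the probe therefore does not measure vector transcripts with certainty. *Ebf1* gave signals of 1.34 and 1.31 in pro-B(+) and 1.12 and 1.14 in LMO2 although the lines lack EBF1, and where its probe lies relative to the deletion was not determined either. Of the B-cell markers, *Blk* was not well above background in either group, while *Igll1* passed on 1 LMO2 array and *Pax5* was dim in both.

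Sex-linked transcripts set the groups apart. *Xist*, the RNA that coats the inactive X chromosome in female cells, read -7.82 and -7.46 in pro-B(+), not well above background, and 1.67 and 1.58 in LMO2, at least 165-fold higher. The Y-linked genes ran the other way: *Ddx3y* was at least 114-fold lower, *Eif2s3y* at least 101-fold and *Uty* at least 8.25-fold lower in LMO2. Pro-B(-) and Mock resembled LMO2, with mean *Xist* signals of 1.69 and 1.26. The comparison therefore also crosses lines that differ in their sex-linked transcripts. "At least" is used throughout where a probe was above background on no array of 1 group; the bright group's mean was then set against the higher of the dim signal and the lowest signal counted as above background on each array.

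Of 13556 genes tested, 10577 passed an adjusted p under 0.05. The calls split into 4743 genes (35%) higher and 5834 (43%) lower in LMO2. Since the replicates were very close, most of these calls were small: 1274 genes (9.4%) were called and at least 2-fold higher, and 1551 (11.4%) were called and at least 2-fold lower. These 4 percentages are the background for every gene list below. Among probes called and at least 2-fold apart, 46.7% were higher in LMO2, but this share depended on the processing. It was 52.4% with arrays centred on the median, 53.0% with quantile normalization, 56.4% where all 4 arrays had to be above background, 57.8% with normexp background correction and 32.4% with no filter on dim probes. At 10-fold the gene split was 109 genes higher and 330 lower. Of the 330, 218 were above background on neither LMO2 array, whereas 51 of the 109 were above background on neither pro-B(+) array.

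**Figure D1:**
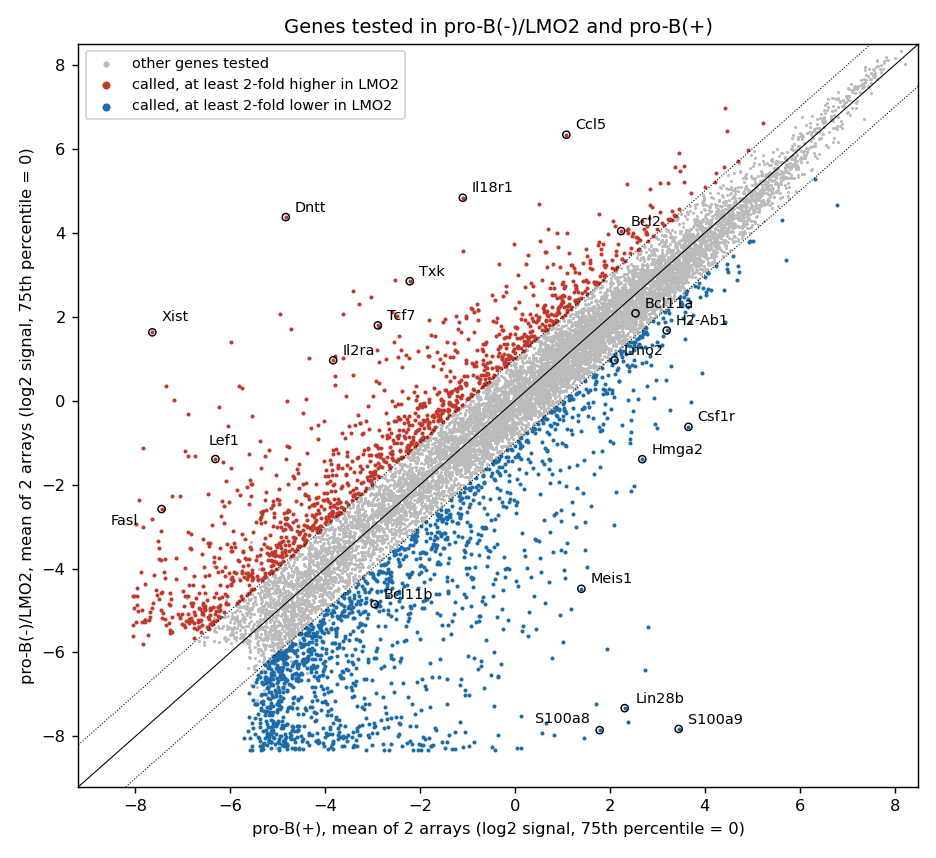
Each point is 1 of the 13556 genes tested, with the mean log2 signal of the 2 pro-B(+) arrays on the x axis and of the 2 pro-B(-)/LMO2 arrays on the y axis, both relative to the array's 75th percentile. The solid line marks equal signal and the dotted lines 2-fold, red points are the 1274 genes called and at least 2-fold higher in LMO2, blue points the 1551 lower, and circled genes are named in the text. *Dntt* and *Xist* stand far above the line, *Meis1*, *Lin28b* and *S100a9* far below it.

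The largest rise among genes measured on all 4 arrays was *Dntt*, which encodes terminal deoxynucleotidyl transferase, the enzyme that adds bases at antigen receptor joints. It read -4.78 and -4.88 in pro-B(+) and 4.39 and 4.36 in LMO2, 590-fold higher (log2 difference 9.20 ± 0.07 SE, adjusted p = 1.18e-07). The intermediate groups formed steps, with means of -1.91 in pro-B(-) and 0.35 in Mock. The next largest rises were *Muc13*, a mucin, at 129-fold, *Cfd*, complement factor D, at 86.3-fold, *Strip2* at 65.4-fold and *Il18r1*, a chain of the IL-18 receptor, at 61.2-fold. *Hbb-y*, an embryonic globin gene, was 51.9-fold higher, followed by *AA467197* at 48.2-fold and *Fam20a* at 45.6-fold. Among genes above background in LMO2 alone of the pair, *Gucy1a1*, a subunit of soluble guanylate cyclase, was at least 141-fold higher, the channel gene *Trpc6* at least 67.6-fold and *Lmo7* at least 53.7-fold.

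Large falls on all 4 arrays included that of *Cenpb*, which encodes a centromere protein. It read 1.21 and 1.14 in pro-B(+) and -4.82 and -5.10 in LMO2, 70.4-fold lower (log2 difference -6.14, adjusted p = 8.23e-07). *Tfpi* was 65.4-fold lower, *Mfsd13a* 59.6-fold, *Meis1* 58.9-fold, *Dlk1* 58.6-fold, *Bmp7* 46.6-fold and *Tgfbi* 44.6-fold lower. Genes above background in pro-B(+) and on neither LMO2 array fell further. *S100a9* was at least 705-fold lower, *Syce2*, a gene of the meiotic synaptonemal complex, at least 430-fold, *Ydjc* at least 338-fold and *Lin28b* at least 320-fold lower. Each of the 11 falls named here had a higher mean in pro-B(+) than in any of the other 3 groups.

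*Tcf7* and *Lef1*, which encode a related pair of HMG-box factors, were higher in LMO2. *Tcf7* read -2.90 and -2.88 in pro-B(+) and 1.80 and 1.79 in LMO2, 25.7-fold higher (log2 difference 4.69 ± 0.22 SE, adjusted p = 1.52e-05), and a second probe gave a log2 difference of 4.48. In pro-B(-) and Mock *Tcf7* was not above background on any array. *Lef1* read -6.49 and -6.14 in pro-B(+), not above background, and -1.35 and -1.43 in LMO2, at least 20.3-fold higher. Neither gene therefore stood at the pro-B(+) level after Lmo2 transduction, but above it.

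Over the T-lineage transcription factors, 12 of the 26 tested were called higher and 9 lower, 7 and 3 of them by at least 2-fold, with a median log2 difference of 0.23 against -0.07 over all genes. *Zbtb16*, which encodes the PLZF factor of innate-like lymphocytes, was 8.07-fold higher. *Gata3* was 1.98-fold higher, with signals of -1.24 and -1.10 in pro-B(+) and -0.12 and -0.24 in LMO2. Among the falls was *Bcl11b*, the gene that closes T-cell commitment. It read -2.90 and -3.01 in pro-B(+) and -5.07 and -4.63 in LMO2, 3.71-fold lower (adjusted p = 0.000176). A dimmer second probe, above background on neither LMO2 array, was at least 2.82-fold lower. The lines without T-cell potential were brighter than either group, with *Bcl11b* means of -2.20 in pro-B(-) and -1.75 in Mock. *Ets2* was 2.54-fold lower and *Id3*, an inhibitor of E proteins, 2.67-fold lower. *Bcl11a*, a zinc-finger factor of lymphoid progenitors, was nearly level with pro-B(+): it read 2.51 and 2.57 there and 2.10 and 2.06 in LMO2 (1.37-fold lower, adjusted p = 0.00052), against means of -3.03 in pro-B(-) and -3.79 in Mock. Mock differed from pro-B(-) by 0.88 in *Gata3* and by 0.42 in *Zbtb16* on the log2 scale.

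The promoters of 3 genes with large differences are shown because the LMO2 complex is known for binding E-boxes. They are the 250 bases before a RefSeq transcript start (GRCm38.p6), 5′ to 3′ on the gene's strand, for *Dntt* and *Lef1*, which rose, and *S100a9*, which fell. Capitals mark every E-box, CANNTG, which reads alike on both strands.
Dntt (chr19:41029025-41029274, + strand): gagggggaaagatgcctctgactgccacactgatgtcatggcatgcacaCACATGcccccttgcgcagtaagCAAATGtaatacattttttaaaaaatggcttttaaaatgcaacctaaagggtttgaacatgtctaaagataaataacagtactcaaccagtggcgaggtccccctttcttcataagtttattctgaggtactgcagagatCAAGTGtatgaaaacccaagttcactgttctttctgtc
Lef1 (chr3:131110047-131110296, + strand): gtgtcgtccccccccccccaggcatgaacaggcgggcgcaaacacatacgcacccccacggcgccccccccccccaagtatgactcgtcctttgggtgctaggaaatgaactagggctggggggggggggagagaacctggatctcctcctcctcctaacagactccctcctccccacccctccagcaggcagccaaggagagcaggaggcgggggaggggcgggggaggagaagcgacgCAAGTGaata
S100a9 (chr3:90695722-90695971, - strand): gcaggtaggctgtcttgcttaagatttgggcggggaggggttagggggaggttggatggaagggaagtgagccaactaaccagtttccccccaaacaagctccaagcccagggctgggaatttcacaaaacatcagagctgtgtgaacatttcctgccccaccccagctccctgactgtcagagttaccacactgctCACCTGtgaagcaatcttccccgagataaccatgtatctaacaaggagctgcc
*Dntt* has 3 matches, *Lef1* 1 in the first of its 4 annotated windows and *S100a9* 1. E-boxes are common: 69.3% of the 27025 genes with such a window hold 1 or more, as do 62.9% of the 10840 tested genes with a window, 66.8% of the 973 called and at least 2-fold higher and 69.8% of the 1217 called and at least 2-fold lower. The GATA letters AGATAA, searched on both strands, were in 11.4%, 7.97%, 10.9% and 10.9% of the same sets. The windows of the genes that rose and fell thus held both motifs at nearly the same rate. Their median number of CpG pairs was also the same, 11 in either set against 16 over the tested genes.

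Genes of T-cell receptor signalling were higher in part of the list. Of 26 tested, 17 were called higher and 7 lower, 6 and 4 by at least 2-fold. *Txk*, a TEC-family kinase, read -2.25 and -2.18 in pro-B(+) and 2.84 and 2.85 in LMO2, 33.4-fold higher. The adaptor gene *Trat1* was 7.90-fold higher. *Il2ra*, which encodes CD25, a marker of early thymocytes, read -3.75 and -3.91 in pro-B(+) and 1.01 and 0.91 in LMO2, 27.7-fold higher (adjusted p = 5.91e-05). The chains of the CD3 complex did not move together. *Cd3d* did not pass (log2 difference 0.25), *Cd3e* and *Cd247*, named after their values were seen, were 1.33-fold and 1.74-fold higher, and *Cd3g* was 2.26-fold lower. *Cd8b1* was above background in neither group, and *Cd8a* was so on 1 LMO2 array. *Cd5*, an inhibitory receptor, was 5.14-fold lower, *Icos* 3.84-fold and *Rasgrp1*, a RAS activator of thymocytes, at least 6.40-fold lower. *Txk* already differed by 2.06 between Mock and pro-B(-) and *Trat1* by 1.66 on the log2 scale.

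**Figure D2:**
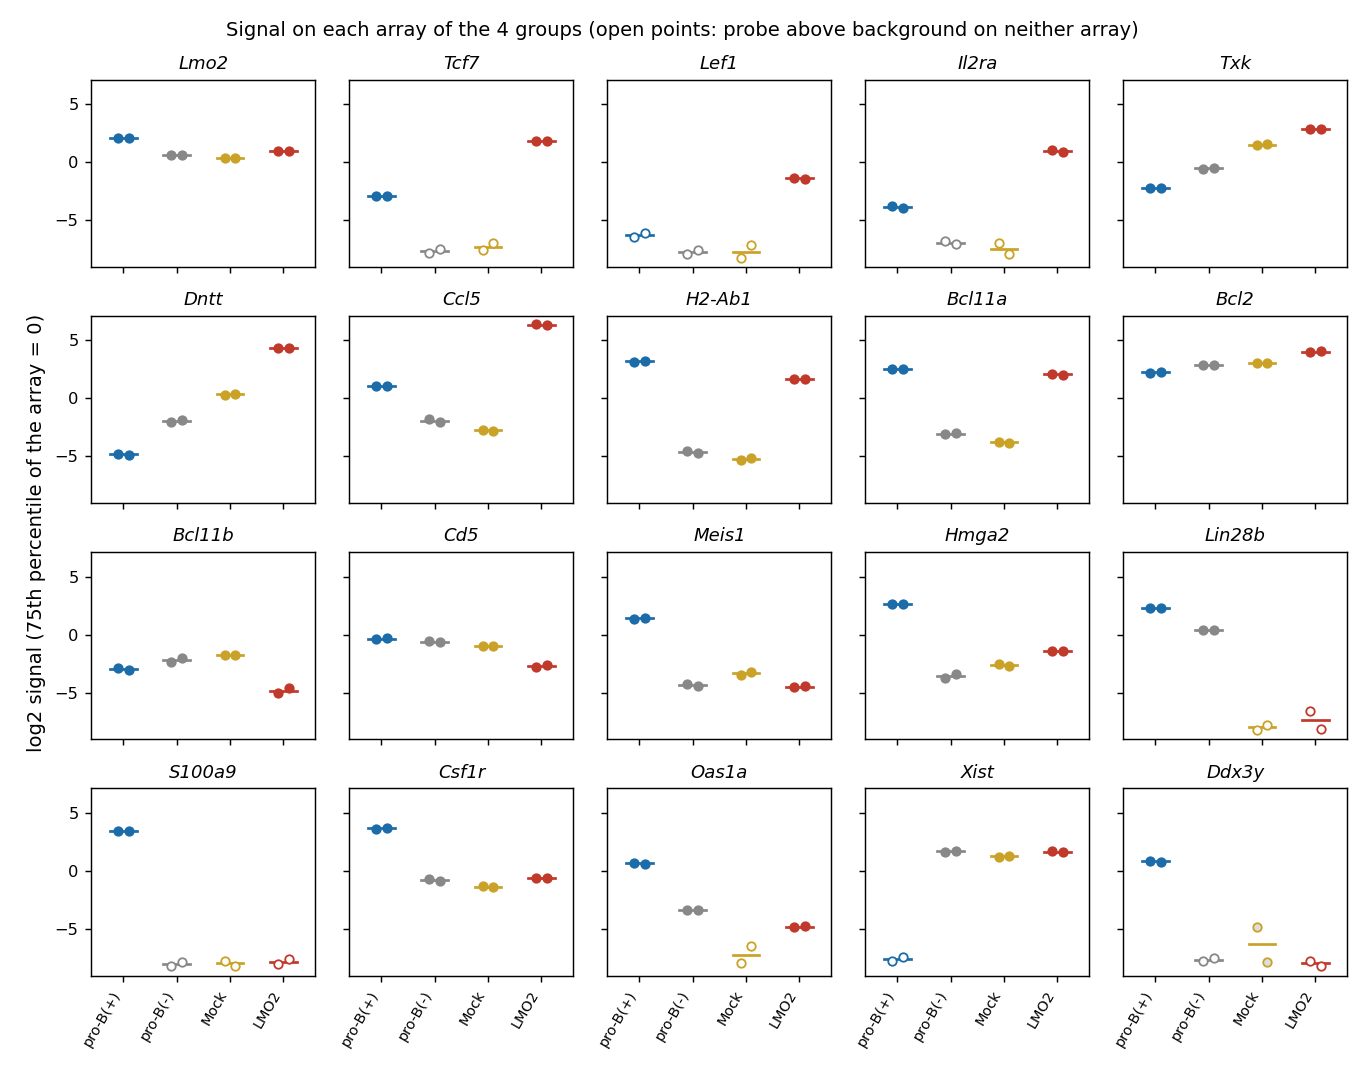
Log2 signal of 20 genes on each of the 8 arrays, relative to the array's 75th percentile, with points for the 2 arrays of a group and a bar at their mean. Open points mark groups in which the probe was above background on neither array, and pale grey points 1 of 2 arrays (*Ddx3y* in Mock). *Tcf7*, *Lef1*, *Il2ra* and *Ccl5* are highest in LMO2, *Bcl11a* and *H2-Ab1* are high in pro-B(+) and LMO2, and *Meis1*, *S100a9* and *Csf1r* are high in pro-B(+) alone.

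Natural killer and cytotoxic genes gave the highest median of the lists, 1.30. Of 21 tested, 12 were called higher, 11 of them by at least 2-fold, and 7 lower, 4 by at least 2-fold. The chemokine gene *Ccl5* read 1.05 and 1.11 in pro-B(+) and 6.38 and 6.29 in LMO2, 38.2-fold higher. *Fasl*, the death ligand, was at least 8.91-fold higher, *Il2rb*, the receptor chain shared by IL-2 and IL-15, 8.62-fold and the chemokine gene *Xcl1* 7.35-fold higher. *Il2rb* had means of -1.54 in pro-B(-) and -0.09 in Mock. *Klrd1*, which encodes CD94, was 2.46-fold higher, at 2.82 and 2.85 in LMO2. The falls of at least 2-fold were those of *Gzmc* (7.11-fold), *Slamf7* (5.77-fold, above background on 1 of 2 LMO2 arrays), *Eomes* (at least 3.28-fold) and *Gzmb* (2.94-fold). *Ncr1*, *Klrk1*, *Klrc1*, *Itga2* and *Cd226* were above background in neither group. *Klrb1c* and *Tbx21* were named after their values were seen. *Klrb1c* was dim but above background on all 4 arrays and did not pass (log2 difference 0.31, adjusted p = 0.245). *Tbx21*, above background on 1 of 2 pro-B(+) arrays, was higher in LMO2 (log2 difference 1.96). The summed signal of the list, in units of the array's 75th percentile, was 27.9 to 29.4 in pro-B(+) and 126 to 132 in LMO2. *Ccl5* made up most of the latter: without it the sums were 25.9 to 27.2 and 47.5 to 48.6. In these bulk samples more cells of a type and more RNA per cell cannot be told apart.

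MHC class II molecules present peptides to CD4 T cells, and of the 11 genes of this list 5 (*H2-Aa*, *H2-Ab1*, *H2-Eb1*, *H2-DMb1* and *Cd74*) were at least 4-fold brighter in both groups than in pro-B(-) and Mock. *H2-Ab1* read 3.18 and 3.21 in pro-B(+), 1.71 and 1.64 in LMO2, and had means of -4.61 in pro-B(-) and -5.22 in Mock. It was 2.87-fold lower in LMO2 than in pro-B(+), and *H2-Eb1* was 1.46-fold lower, while *H2-Aa* did not pass (log2 difference -0.75, adjusted p = 0.176). *Cd74*, the invariant chain, was 1.87-fold higher. The genes of the peptide-exchange inhibitor H2-O were higher in LMO2, *H2-Ob* by 10.7-fold and *H2-Oa* by 2.84-fold, and both were also brighter in pro-B(-) and Mock than in pro-B(+). Higher too was *H2-DMb2*, by 2.94-fold, which like *H2-Eb2* and *Ciita* was dim in both groups. Leaving out any 1 of the 4 arrays ended the call of *H2-DMb2* (log2 differences from 1.42 to 1.69). That of *H2-Eb1* ended without pro-B(+) replicate 2 (-0.46) or without LMO2 replicate 1 (-0.57) or 2 (-0.52), and *H2-Aa* passed where the 4 arrays alone were fitted. Of the 11 genes tested, 5 were called higher and 3 lower.

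B-lineage genes moved in both directions. Of 23 tested, 13 were called lower, 8 by at least 2-fold, and 9 higher, 5 by at least 2-fold. *Cd79b*, a chain of the B-cell receptor complex, read -0.52 and -0.53 in pro-B(+) and -3.51 and -3.64 in LMO2, 8.29-fold lower. *Rag1* and *Rag2*, which encode the recombinase of both lymphoid lineages, were 8.23-fold and 4.88-fold lower, and they were lower in LMO2 than in any other group. *Rag1* read -1.73 and -1.79 in pro-B(+) and -5.02 and -4.58 in LMO2. *Blnk*, an adaptor of B-cell receptor signalling, was 4.39-fold lower. Besides *Dntt*, which acts with the recombinase but moved the opposite way, *Lax1* was 7.11-fold higher and the coactivator gene *Pou2af1* at least 3.17-fold higher.

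Several fetal and progenitor genes were lower in LMO2. *Meis1*, a homeobox gene of blood stem cells, read 1.38 and 1.41 in pro-B(+) and -4.51 and -4.46 in LMO2, 58.9-fold lower (log2 difference -5.88 ± 0.09 SE), with a mean of -4.35 in pro-B(-). Of the list of the fetal LIN28 programme, 9 of 10 tested were called lower, 6 by at least 2-fold, and none higher. The list holds the genes of the LIN28 RNA-binding proteins, *Lin28a* and *Lin28b*, and other fetal genes. Whether each of these depends on LIN28 was not tested. *Hmga2*, a chromatin protein gene of fetal stem cells, read 2.68 on both pro-B(+) arrays and -1.38 and -1.40 in LMO2, 16.9-fold lower. *Dlk1* was 58.6-fold lower, *Igf2bp2* at least 6.51-fold and *Igf2bp3* 3.22-fold lower. *Hmga1* stayed bright, at 7.08 and 7.02 in pro-B(+) and 6.85 and 6.78 in LMO2, *Arid3a* was 1.67-fold lower, and *Plagl1* did not pass.

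For *Lin28b* the step lay between other groups. It read 2.30 and 2.32 in pro-B(+), had a mean of 0.42 in pro-B(-), and was above background on no array of Mock or LMO2. The cells with the empty vector thus also lacked a measurable *Lin28b* signal. *Dlk1* also differed between Mock and pro-B(-), by -2.40, whereas *Hmga2* and *Meis1* differed there by 1.0 in the other direction.

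The stem and progenitor list, which includes *Meis1*, showed no common shift, with 11 of 23 called higher, 10 lower and a median of -0.11. *Erg*, an ETS factor gene of stem cells, was 5.62-fold lower and *Procr*, above background on 1 of 2 pro-B(+) arrays, 2.90-fold higher. Of the HOX genes, 14 of 38 measured were tested, of which 9 were called lower and 3 higher. *Hoxa11* was 11.9-fold lower with 1 LMO2 array above background, *Hoxb4* at least 7.97-fold lower and *Hoxc4* 13.3-fold higher. *Hoxa11* and *Hoxc4* were both brightest in the lines without T-cell potential, with means of 1.38 and 1.01 in pro-B(-).

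Granulocyte and macrophage genes formed the largest group that was high in pro-B(+) and low in LMO2. Of 36 myeloid genes tested, 24 were called lower, 20 by at least 2-fold, and 7 higher, 1 by at least 2-fold, with a median of -1.36. *S100a9* and *S100a8*, the calprotectin subunits of neutrophils, were the extremes. *S100a9* read 3.43 and 3.46 in pro-B(+) and -8.06 and -7.58 in LMO2, and *S100a8* was at least 222-fold lower. *Ltf*, lactoferrin, was at least 31.2-fold lower and *Ctsg*, cathepsin G, at least 23.9-fold. *Csf1r*, the receptor for M-CSF, read 3.65 and 3.66 in pro-B(+) and -0.59 and -0.66 in LMO2, 19.4-fold lower.

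The myeloid list did not fall as a whole, however. *Mpo*, myeloperoxidase, read 3.99 and 4.02 in pro-B(+) and 4.0 and 3.94 in LMO2, a log2 difference of -0.04 (adjusted p = 0.405), against means of 0.58 in pro-B(-) and -0.41 in Mock. *Fcgr3* was 2.24-fold higher in LMO2. The summed myeloid signal was 284 to 288 in pro-B(+) and 225 to 230 in LMO2. Mast cell, basophil and eosinophil genes were dim in both groups, with a summed signal of 1.64 to 1.69 in pro-B(+) and 1.45 to 1.48 in LMO2. Of that list 10 of 14 were tested, 2 called higher and 4 lower. Erythroid and megakaryocytic genes had 6 of 19 called higher and 10 lower, 5 and 6 of them by at least 2-fold. The defining genes *Alas2* and *Rhag* were above background in neither group, whereas *Tfrc* and *Gfi1b* were bright on all 4 arrays. The globin gene *Hbb-bh1*, named after its values were seen, was lower in LMO2 (log2 difference -1.39), opposite to *Hbb-y*. *Gata1*, the erythroid GATA factor and a partner of LMO2, was at least 7.54-fold lower, and *Car2*, carbonic anhydrase 2, at least 7.56-fold lower. On the other side, the megakaryocyte genes *Itga2b* and *Gp9* were at least 4.86-fold and 4.96-fold higher, the water channel gene *Aqp1* 3.35-fold and *Nfe2* 2.71-fold higher. *Aqp1* also differed across the slides between the other groups, with means of -7.64 in pro-B(-) and -1.95 in Mock.

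The partners of LMO2 moved in both directions. Of the 19 genes tested of the LMO2 complex and its regulators, 10 were called higher and 6 lower, 3 each by at least 2-fold. *Lyl1* was bright in both groups and 1.64-fold lower in LMO2, *Tal1* was 2.66-fold higher, at -0.57 and -0.54 against -1.98 and -1.95, and the corepressor gene *Cbfa2t3* was 2.14-fold higher. *Tcf12*, an E-protein gene, was called 2.25-fold higher at its brightest probe, where the pro-B(+) arrays read 0.20 and -0.68, but a second probe gave a log2 difference of -0.14 that did not pass.

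Notch receptors and targets gave no common direction, with 12 of 30 tested genes called higher and 9 lower and a median of 0.00. *Notch1* did not pass (log2 difference -0.23, adjusted p = 0.124), while a dimmer second probe was above background in LMO2 and not in pro-B(+), at least 3.15-fold higher. *Notch2* was 2.01-fold higher at its brightest probe and level at the second (log2 difference 0.11). The target gene *Hes1* read -4.83 and -5.05 in LMO2 and was above background in LMO2 alone, at least 1.74-fold over pro-B(+), and *Dtx1* was 2.38-fold higher. The target *Hes5*, named after its values were seen, was above background on all 4 arrays and lower in LMO2 (log2 difference -0.43, adjusted p = 0.000512). The largest falls of the list were those of *Maml2* (at least 2.73-fold), *Dll1* (at least 1.90-fold), *Jag1* (at least 2.22-fold) and *Jag2* (log2 difference -1.15). The targets *Hey1* and *Heyl* were above background in neither group, *Nrarp* was so on 1 pro-B(+) array, and *Ptcra* did not differ beyond the spread. The list also holds *Il2ra*, its largest rise, which is counted in the T-cell receptor and cytokine receptor lists as well.

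Cytokine receptors had no common direction. *Il7r*, which carries the IL-7 signal in the culture, read 2.14 and 1.86 in pro-B(+) and 2.05 and 2.00 in LMO2 (log2 difference 0.03, adjusted p = 0.805). *Il18r1* read -1.10 on both pro-B(+) arrays and 4.85 and 4.82 in LMO2, and differed by 1.33 between Mock and pro-B(-). The largest rises of the list were those of *Il18r1*, *Il2ra* and *Il2rb*, and the largest falls those of *Csf1r*, *Il6ra* and *Csf2ra*. Over the whole list 15 of 30 were called higher and 11 lower.

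Among regulators of cell survival, *Bcl2*, the main anti-apoptotic member, read 2.22 and 2.25 in pro-B(+) and 4.03 and 4.06 in LMO2, 3.50-fold higher (adjusted p = 7.1e-07), with means of 2.90 in pro-B(-) and 3.06 in Mock. Of its death-promoting relatives, some rose, *Pmaip1* by 3.06-fold, *Bbc3* by 2.88-fold, *Bmf* by 2.65-fold and *Bcl2l11* by 1.99-fold. *Bmf* had means of 0.26 in pro-B(-) and 1.20 in Mock. The 3 members called lower are also death-promoting: *Bik* (at least 1.65-fold), *Bid* (1.32-fold) and *Bak1* (1.12-fold). Of the 15 tested, 9 were called higher. Of 19 cell cycle genes tested, 11 were called higher and 7 lower. Cell cycle inhibitors moved in both directions. *Cdkn1a*, the p21 gene and a target of p53 like *Pmaip1* and *Bbc3*, was 4.20-fold higher, *Cdkn2c* 3.49-fold and *Cdkn2a* 3.12-fold higher, while the imprinted inhibitor *Cdkn1c* was at least 15.6-fold lower. *Cdkn2a* read -1.29 and -1.31 in LMO2, below its means of 1.07 in pro-B(-) and 0.26 in Mock. *Ccna2*, a cyclin of S phase, was 2.01-fold lower and *Ccnd1* 1.95-fold lower, whereas *Ccnd2* was 2.12-fold and *Cdk6*, the kinase of D-type cyclins, 2.05-fold higher.

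Of the DNA methylation genes, 8 of 13 were called lower and 3 higher. The de novo methyltransferases moved apart: *Dnmt3a* read 0.57 and 0.46 in pro-B(+) and 1.52 and 1.51 in LMO2, a log2 difference of 1.0, whereas *Dnmt3b* was 2.25-fold lower, at 4.96 and 4.92 against 3.79 and 3.76. *Dnmt1*, which maintains methylation, differed by -0.12, a call that ended when any 1 array was left out (-0.14 to -0.09).

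Interferon-stimulated genes were split. Of 23 tested, 12 were called lower, 7 by at least 2-fold, and 9 higher, 2 by at least 2-fold. *Oas1a*, a sensor of double-stranded RNA, read 0.67 and 0.61 in pro-B(+) and -4.85 and -4.79 in LMO2, 44.1-fold lower, *Ifit3* was at least 24.0-fold lower, *Ifit2* 8.86-fold and *Ifit1* 3.75-fold lower, the last pair with 1 LMO2 array above background. *Ifi27l2a* was 2.74-fold higher. *Oas1a* had a mean of -3.39 in pro-B(-) and was above background on no Mock array.

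Such genes are known for the interferon-stimulated response element, and the windows of a gene that fell, *Ifit1*, and of a gene called slightly higher, *Gbp2* (log2 difference 0.28, adjusted p = 0.0278, chosen after its values were seen), are shown to compare them. Capitals mark a pair of GAAA repeats with any 2 bases between them, searched on both strands, so that a match on the opposite strand reads as a pair of TTTC repeats.
Ifit1 (chr19:34640639-34640888, + strand): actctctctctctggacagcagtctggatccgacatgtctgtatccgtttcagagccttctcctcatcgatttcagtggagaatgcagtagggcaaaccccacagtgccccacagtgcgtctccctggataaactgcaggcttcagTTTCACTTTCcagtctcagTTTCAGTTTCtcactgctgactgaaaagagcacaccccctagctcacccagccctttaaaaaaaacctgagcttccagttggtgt
Gbp2 (chr3:142620413-142620662, + strand): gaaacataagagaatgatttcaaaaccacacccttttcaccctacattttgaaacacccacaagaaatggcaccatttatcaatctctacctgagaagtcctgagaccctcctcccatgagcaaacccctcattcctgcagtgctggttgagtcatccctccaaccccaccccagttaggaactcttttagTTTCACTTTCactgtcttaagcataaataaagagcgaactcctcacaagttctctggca
*Ifit1* holds 2 matches and *Gbp2* 1. The motif was in 3.46% of the genes with a window, in 5 of the 10 interferon-stimulated genes with a window that were called lower, and in 5 of the 9 others tested. The genes that fell and the rest of the list thus held it at a similar rate.

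Markers of stromal cells, on which the lines grow, moved with the comparison. Of 24 tested, 14 were called higher in LMO2 and 6 lower, 7 and 3 by at least 2-fold. The summed signal was 36.1 to 36.4 in pro-B(+) and 46.8 to 48.1 in LMO2. *Fn1*, the brightest member in LMO2, made up most of this gap: without it the sums were 25.97 to 26.16 and 27.15 to 28.31. *Acta2*, smooth muscle actin, was 11.4-fold higher, *Tagln* 9.32-fold and *Timp3* 5.53-fold higher. *Acta2* and *Tagln* differed between Mock and pro-B(-) as well, by 3.54 and 1.92 on the log2 scale. *Timp3* had means of -5.74 in pro-B(-) and -2.67 in Mock. The matrix genes *Col3a1*, *Fbn1* and *Col6a1* were lower in LMO2, by 3.17-fold, 2.64-fold and 2.12-fold. The collagen gene *Col1a1*, a defining fibroblast marker, read -0.72 and -0.73 in pro-B(+) and -0.53 and -0.48 in LMO2. *Dcn* and *Lum* were above background in neither group. Other members, named after their values were seen, were bright in both groups. *Fn1* read 3.36 and 3.34 in pro-B(+) and 4.30 on both LMO2 arrays. *Col1a2* read 2.11 and 1.92 against 2.09 and 1.94, and *Cxcl12* 3.41 and 3.44 against 2.70 and 2.67. The part of carried-over stromal RNA in the differences above was not tested.

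**Figure D3:**
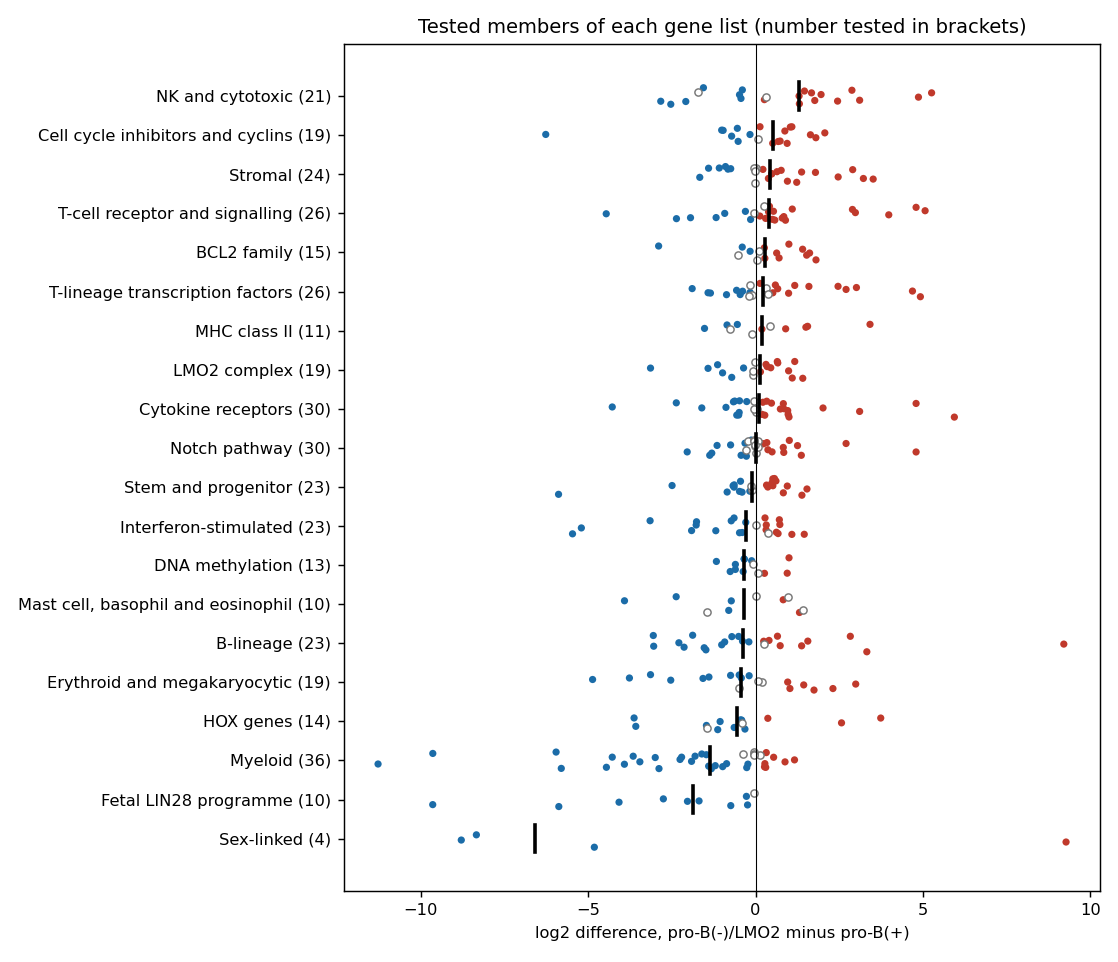
Log2 difference of pro-B(-)/LMO2 minus pro-B(+) for every tested member of 20 gene lists, with the number tested in brackets, red points called higher, blue points called lower, open points not called, and a black bar at the median. Vertical scatter within a list has no meaning. Apart from the 4 sex-linked genes, the fetal LIN28 programme and the myeloid list lie to the left, with medians of -1.86 and -1.36, and the natural killer list to the right, with 1.30.

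What the T-competent states had in common was described by patterns over the 4 groups, set after the values were seen and without a test. They were sought over all 20125 genes with a symbol, and whether any gene list was over-represented in a pattern was not tested. A pattern required at least 4-fold between the lowest mean of the high groups and the highest mean of the low groups, with signals below the floor raised to it. High in pro-B(+) and LMO2 against pro-B(-) and Mock were 91 genes, among them *Tcf7*, *Bcl11a*, *H2-Aa*, *H2-Ab1*, *H2-Eb1*, *Cd74*, *Klrd1* and *Mpo*. The reverse pattern had 7 genes, *Hoxa11* and *Hoxc4* among them. High in LMO2 alone were 129 genes, which included *Lef1*, *Il2ra*, *Il2rb*, *Fasl* and *Dntt*. They also included *Tcf7*, *Ccl5* and *Xcl1*, which fit the first pattern too. High in pro-B(+) alone were 262 genes, which included *Meis1*, *Hmga2*, *Dlk1*, *Csf1r*, *Cdkn1c*, *Rasgrp1*, *Ifit3* and 11 of the 37 myeloid genes on the array. Low in LMO2 alone were 41 genes, with *Rag1*, *Rag2* and *Erg*, and low in pro-B(+) alone 22, with *Dntt*, *Il18r1* and *Xist*. The remaining patterns follow the slides. High in pro-B(+) and pro-B(-) against Mock and LMO2 were 62 genes, with *Lin28b* and *Dlk1*. High in Mock and LMO2 against the parental lines were 21 genes, with *Dntt* and *Txk*. A gene could fit more than 1 pattern, as *Tcf7*, *Ccl5*, *Xcl1*, *Dlk1* and *Dntt* did. So did the myeloid genes *Lyz1* and *Lyz2*, counted as high in pro-B(+) alone and as high in pro-B(+) and LMO2.

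The pair of groups that spans the same slides shows how much of the comparison recurred between lines without the Lmo2 vector. Of 12721 genes tested in both comparisons, 660 (5.19%) were called and at least 2-fold higher in Mock than in pro-B(-), and 520 (4.09%) lower. Of the 1138 such genes at least 2-fold higher in LMO2 than in pro-B(+), 331 were also higher in Mock, which is 29.1% of the first set and 50.2% of the second, and 10 were lower. Of the 1107 at least 2-fold lower in LMO2, 389 were also lower in Mock, 35.1% and 74.8% of the sets, and 49 were higher. The genes that recurred included *Dntt*, with a log2 difference of 2.27 between Mock and pro-B(-), *Muc13* with 1.93, *Strip2* with 1.88 and *Mfsd13a* with -2.41. Others had no such counterpart: *Bcl2* differed by 0.16 there, *Hbb-y* by 0.30 (adjusted p = 0.12), and *Ccl5* by -0.82, against its rise in LMO2. What the slide, the vector and the culture of the transductants each contributed cannot be told apart.

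**Figure D4:**
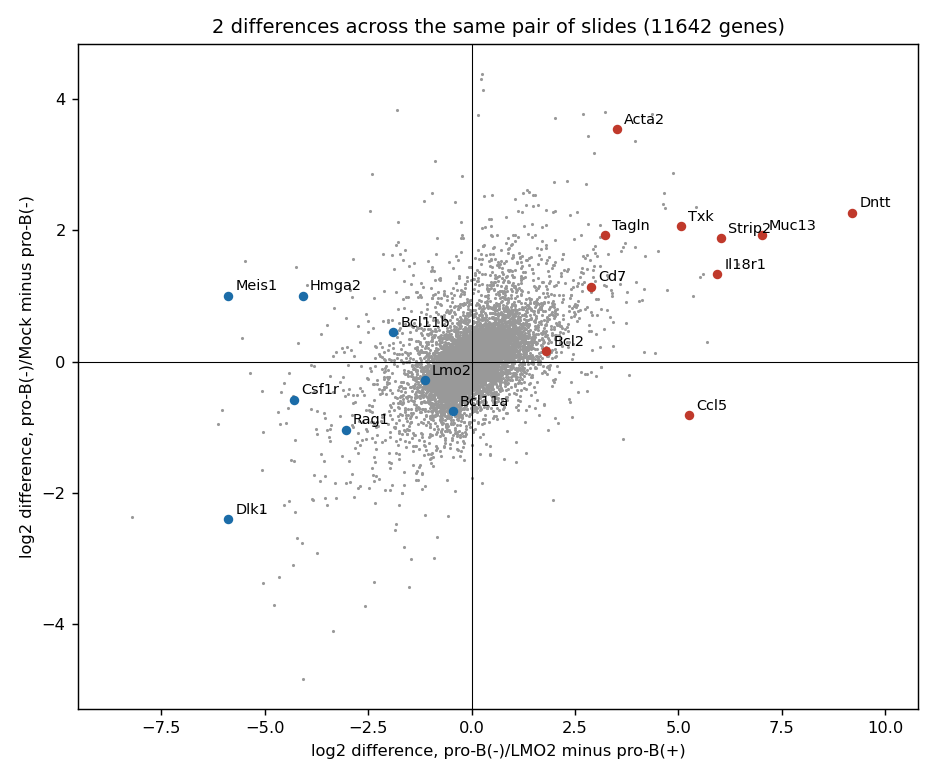
The log2 difference of pro-B(-)/LMO2 minus pro-B(+) on the x axis and of pro-B(-)/Mock minus pro-B(-) on the y axis, for the 11642 genes above background on all 8 arrays; the differences share no array but cross the same pair of slides. Red and blue points are genes named in the text that were higher or lower in LMO2. *Dntt*, *Txk* and *Acta2* lie at the upper right and *Dlk1* at the lower left, moving the same way in both, whereas *Meis1*, *Hmga2* and *Ccl5* lie in the other quadrants.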

How the data were processed

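Total RNA of each culture was labelled with Cy3 and hybridised to 1-colour Agilent whole mouse genome arrays. The authors deposited scanner output of Agilent Feature Extraction 11.5.1.1, in which the processed intensity is background subtracted and detrended, per the file headers. The authors also deposited a log2 matrix after 75th percentile normalization, which differed from log2 of the intensity by 1 constant per array and served as an alternative, so its scale, centring and direction are settled.

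Outlier spots were left out and spots of a probe averaged, which kept 39378 of 39429 probes. Log2 intensity minus each array's 75th percentile was tested with limma 3.58.1 in R 4.3.3 (lmFit, eBayes), with 4 group means over all 8 arrays and 4 residual degrees of freedom. A probe was tested if either group had it well above background on both its arrays (24134 probes), with Benjamini-Hochberg adjustment over all of them and a threshold of 0.05. The number of arrays limits the precision: the smallest 2-sided exact permutation p for 2 against 2 is 0.333. The fit was tested on simulated data. Unversioned accessions looked up in RefSeq's genes (GRCm38.p6) named 26550 probes (67.4%), and a gene was read at its brightest probe over the 8 arrays. The design is annotated on mm9, so no gene coordinates are given, and promoter windows are RefSeq's.

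Members and gene lists were chosen with earlier results of these data known. The genes named are those the study discusses, the 8 largest rises and falls on all 4 arrays, the 4 largest bounds in each direction, and of each list the first member, up to 4 called members in each direction, or any member of lists of up to 20. Genes printed to show levels not above background, or to fill a pattern over the 4 groups, were chosen after their values were seen. Some genes that this rule takes are not reported here.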

Additional observations from a re-analysis of the deposited data

How the results depend on the processing

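Of 24134 probes tested, 18440 were called and 5054 were called and at least 2-fold apart. The 2-fold count was 8320 with no filter on dim probes, 3027 where all 4 arrays had to be above background and 2212 with normexp correction, which used the median spot signal because no mean signal is in the files, was chosen after seeing the data, and compresses dim signals through its offset of 50. A test against 1.5-fold (limma treat) called 6269 probes. Leaving out 1 array gave 17019 to 17224 calls and 5197 to 5358 at 2-fold. The replicate numbers did not pair the samples (correlations of replicate differences from -0.027 to 0.051), and the fit with a replicate block called 18318 and 5040 probes, and 13296 for Mock against pro-B(-) in place of 13674. The share of these probes that were higher in LMO2 went from 46.7% to between 32.4% (no filter) and 57.8% (normexp). The median difference of all probes went from -0.05 to -0.28 with no filter and to 0.06 with normexp. The slide could not be fitted as a block, since no group spans slides. Directions turned with normexp for *Plagl1* (0.17), *Ciita* (0.0188), *Dnmt3l* (0.0394), *Jag1* (0.0253), *Mcpt8* (0.0523) and *Dll1* (0.0612), and with the mean over a gene's probes for *Ccnd3* (-0.26), *Itgam* (-0.29) and *Notch1* (1.07). List medians turned for mast cell genes (0.10 with normexp, 0.0118 on all 4 arrays, 0.0515 with probe means), erythroid genes (0.0608 with normexp), the LMO2 complex (-0.0112 with no filter and with probe means), interferon-stimulated genes (0.16 on all 4 arrays) and stem and progenitor genes (0.0107 with probe means). Of 3105 values of named genes under these alternatives, 2976 kept their direction and side of the threshold, 87 lost and 33 gained a call, and 9 turned.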
